A study of Mus musculus with 6 samples.

Results

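Transcripts of the NF-kappaB subunits and inhibitors were measured in mouse mammary tumour explant cells with a hairpin against CdGAP, and set against the same cells with a control hairpin. The set was chosen by gene symbol and holds 10 of the 41214 genes counted. It takes in the subunit genes Nfkb1, Nfkb2, Rela, Relb and Rel and the feedback gene Tnfaip3. It also holds the inhibitor genes Nfkbia, Nfkbib and Nfkbie and the related gene Nfkbiz. All 10 symbols matched a counted gene, and all 10 passed the filter on low counts. The cells of both groups derive from NMuMG, a mouse mammary epithelial line, and express the receptor ErbB2. The shCdGAP group (genotype label CdGAP KD, 3 libraries) was set against the shCTL group (genotype label WT, 3 libraries). CdGAP, the product of Arhgap31, is a GTPase-activating protein. The labels do not say how many hairpin sequences, clones or cultures stand behind the libraries. The p-values therefore rest on library-to-library spread, part of which may be technical.

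NF-kappaB is a family of dimeric transcription factors that switch on genes of inflammation, survival and adhesion. In resting cells IkappaB proteins hold the dimers in the cytoplasm. Signals from cytokine and Toll-like receptors activate the IKK kinases, which mark IkappaB for degradation and free the dimers. Several genes of the system are themselves NF-kappaB targets, so that an active pathway makes more of its own inhibitors. In the mammary gland the pathway is known for its part in epithelial proliferation and in tumour growth.

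Library totals ran from 19176540 to 26824249 fragments assigned to genes. Levels are counts per 1e+06 fragments after TMM scaling (CPM), and 1 count was worth 0.0364 to 0.0516 CPM. Arhgap31, the gene the hairpin targets, was at 1.70, 9.16 and 8.21 CPM in shCdGAP replicates 1 to 3, against 13.2, 14.4 and 15.1 CPM in shCTL replicates 1 to 3. The groups did not overlap, but the log2 fold change of −1.16 ± 0.55 (SE) missed the threshold in edgeR (adjusted p = 0.19), and without shCdGAP replicate 1 it was −0.71 (adjusted p = 0.00407). Replicate 1 of shCdGAP also stood apart from its replicates over all genes, where chi-square over its degrees of freedom was 155 and 203 against the other 2, which differed from each other by 13.9. The epithelial keratin genes Krt8 and Krt18 were abundant in both groups, while the claudin genes Cldn3 and Cldn7 had 0 counts in every library. The 12 epithelial markers summed to 7190 to 11005 CPM in shCdGAP and 5919 to 8429 CPM in shCTL. Of the 8 tested, 2 rose and 2 fell in edgeR (10.4% and 11.4% over all tested genes). The risen were the cadherin gene Cdh1, at 768 ± 85.3 CPM in shCdGAP and 232 ± 51.5 CPM in shCTL (adjusted p = 0.00193), and Krt7. Krt7 was at 5.57 ± 1.81 CPM in shCdGAP and 1.86 ± 0.320 CPM in shCTL (adjusted p = 0.016). The fallen were both low. Krt5 was at 0.0283 ± 0.0247 CPM in shCdGAP and 1.33 ± 0.278 CPM in shCTL. The epithelial adhesion gene Epcam had 0 counts in all shCdGAP libraries, against 1.65, 1.06 and 1.17 CPM in shCTL. Among 10 myeloid markers, Adgre1, C1qa and Tyrobp had 0 counts throughout, and of 4 tested 1 rose. This was Itgam, at 1.41 ± 0.236 CPM in shCdGAP and 0.213 ± 0.123 CPM in shCTL (adjusted p = 0.00788), while Cd68, named after its values were seen, was at 6.44 ± 4.04 CPM in shCdGAP and 17.6 ± 3.60 CPM in shCTL without overlap (adjusted p = 0.0709). The myeloid markers summed to 107 to 201 CPM in shCdGAP and 167 to 175 CPM in shCTL, of which Cd14 alone averaged 149.6 CPM in shCdGAP and 150.3 CPM in shCTL. The 8 lymphoid markers summed to 0.134 to 1.11 CPM in shCdGAP and 0.509 to 0.619 CPM in shCTL, with Cd3d and Nkg7 at 0, and 0 had enough counts to test. The 8 endothelial markers summed to 0.136 to 0.804 CPM in shCdGAP and 2.42 to 2.56 CPM in shCTL, with Emcn and Cldn5 at 0, and of 2 tested 1 fell (Tek). The 8 fibroblast markers summed to 3.41 to 7.06 CPM in shCdGAP and 5.35 to 6.29 CPM in shCTL, with Lum and Thy1 at 0, and of 2 tested 0 were called in edgeR or DESeq2 and 1 was higher at an unadjusted p under 0.05. In DESeq2, 4 epithelial markers were higher and 2 lower, and 1 myeloid marker was higher and 1 lower (Cd68, adjusted p = 0.00835). The 2 tested endothelial markers were lower there (14.1% of all tested genes were higher and 14.5% lower). The marker lists are too small to set against shares over all tested genes. The part of these markers in the results was not tested.

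Most of the NF-kappaB genes were higher in shCdGAP cells. Of the 10 members, 7 rose and 0 fell in edgeR's quasi-likelihood test at an adjusted p under 0.05, where 10.4% of the 13483 tested genes rose and 11.4% fell. The 7 were the subunit genes Nfkb1, Nfkb2, Rela and Relb, the IkappaB genes Nfkbia and Nfkbie, and Tnfaip3. Nfkbie rose 3.04-fold and Tnfaip3 2.35-fold, and the other 5 rose between 1.41-fold and 1.83-fold. Rel, Nfkbib and Nfkbiz did not pass. All 3 shCdGAP libraries lay above all 3 shCTL libraries for the same 7 genes, an order found in 21.7% of tested genes. The median log2 fold change of the 10 members was 0.66, against 0.01 over all tested genes. At an unadjusted p under 0.05 the counts were 7 higher and 0 lower, where 17.4% of all tested genes were higher and 17.3% lower. DESeq2 called 7 risen and 0 fallen members, with 14.1% and 14.5% of all genes called. These are bulk samples, so that more cells expressing a gene and more RNA per cell cannot be told apart.

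**Figure D1:**
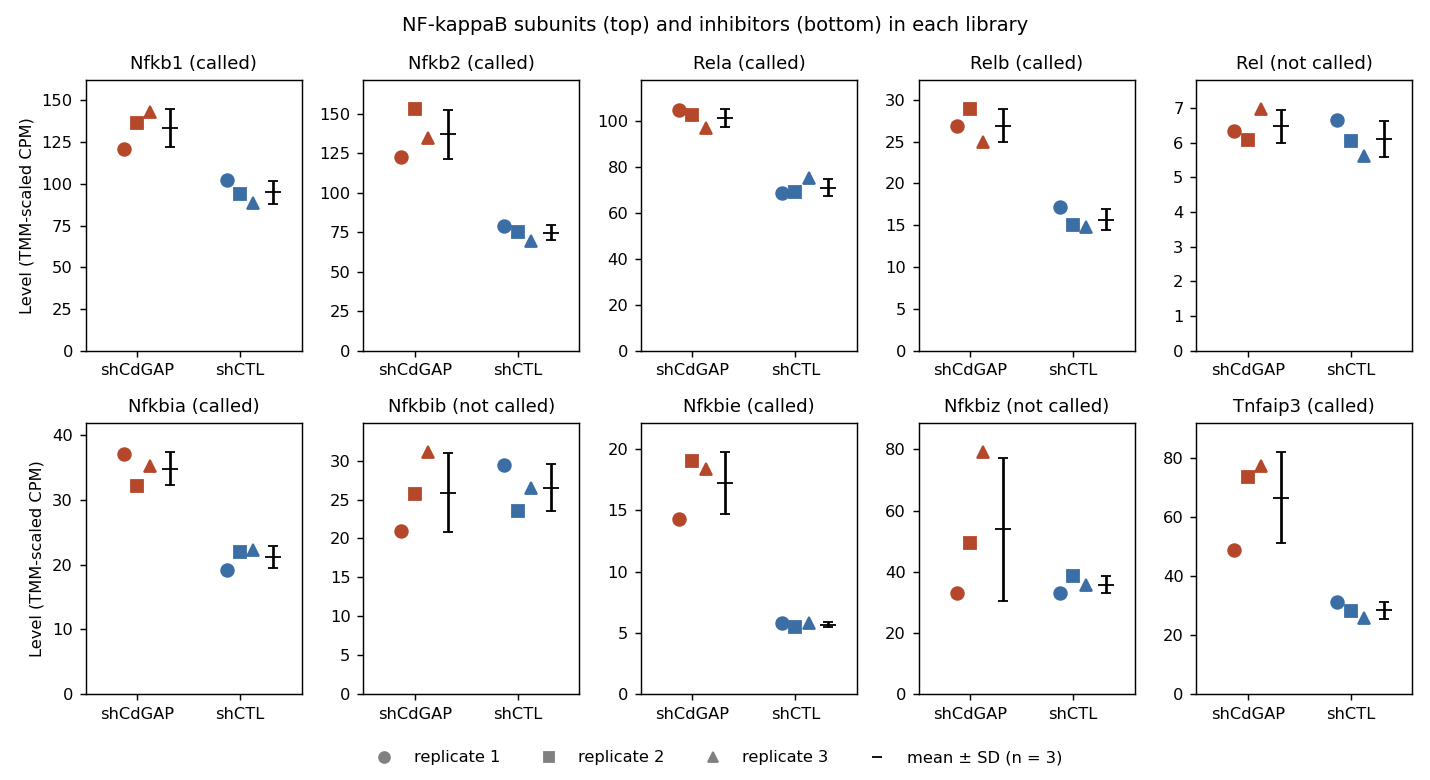
Level of each member in TMM-scaled CPM (y axes, from 0) in the 3 shCdGAP and 3 shCTL libraries, with symbols for the replicate number and bars for mean ± SD (n = 3). The groups are apart for 7 genes and overlap for Rel, Nfkbib and Nfkbiz, where shCdGAP runs from 32.9 to 79.2 CPM for Nfkbiz.

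Among the subunits, the precursor gene Nfkb2 changed most. Nfkb2 (ENSMUSG00000025225, GRCm38 chromosome 19, 46304737 to 46312090, plus strand) encodes the precursor that is processed to a DNA-binding subunit of the non-canonical pathway and that, unprocessed, also acts as an inhibitor. It had 122.8, 153 and 135 CPM in shCdGAP replicates 1 to 3, against 79.1, 75.1 and 69.7 CPM in shCTL replicates 1 to 3. The lowest shCdGAP library was therefore well above the highest shCTL library, and the log2 fold change was 0.88 ± 0.12 (SE, adjusted p = 0.00395). Relb (ENSMUSG00000002983, chromosome 7, 19606217 to 19629438, minus strand), whose product is the usual partner of processed Nfkb2, had 26.9, 28.9 and 24.9 CPM in shCdGAP, against 17.1, 15.1 and 14.8 CPM in shCTL. The groups did not overlap, and the log2 fold change was 0.78 ± 0.13 (adjusted p = 0.00852).

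Of the canonical subunit genes, Rela and Nfkb1 rose and Rel was not called. Rela (ENSMUSG00000024927, chromosome 19, 5637483 to 5648130, plus strand) encodes the main transactivating subunit and had 105, 103 and 97.2 CPM in shCdGAP, against 68.7, 69.0 and 75.2 CPM in shCTL. Its SDs were small in both groups (3.94 and 3.69 CPM, n = 3 each), and the log2 fold change was 0.52 ± 0.09 (adjusted p = 0.0113). Nfkb1 (ENSMUSG00000028163, chromosome 3, 135584655 to 135691547, minus strand) encodes the precursor of the subunit that pairs with Rela. It had 121, 136 and 143 CPM in shCdGAP, against 103, 93.7 and 88.6 CPM in shCTL, without overlap. Its log2 fold change was 0.49 ± 0.11 (adjusted p = 0.0245), and with the replicate number as a block it was 0.49 and fell short of the threshold (adjusted p = 0.0597). Rel (ENSMUSG00000020275, chromosome 11, 23741514 to 23770970, minus strand), a subunit best known from lymphoid cells, was low. It had 6.35, 6.08 and 6.98 CPM in shCdGAP, against 6.66, 6.04 and 5.61 CPM in shCTL. These groups overlapped, with a log2 fold change of 0.09 ± 0.16 (adjusted p = 0.761).

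The IkappaB genes differed from each other. Nfkbie (ENSMUSG00000023947, chromosome 17, 45555716 to 45563169, plus strand) encodes IkappaB-epsilon, a cytoplasmic inhibitor. It had 14.3, 18.998 and 18.4 CPM in shCdGAP, against 5.78, 5.46 and 5.76 CPM in shCTL. No shCdGAP library came near the shCTL range, and the log2 fold change of 1.604 ± 0.17 was the largest of the 10 (adjusted p = 0.00151). Nfkbia (ENSMUSG00000021025, chromosome 12, 55489411 to 55492647, minus strand) encodes IkappaB-alpha, the rapid feedback inhibitor of the pathway, and had 37.2, 32.1 and 35.3 CPM in shCdGAP, against 19.2, 22.01 and 22.2 CPM in shCTL. The groups did not overlap, and the log2 fold change was 0.72 ± 0.13 (adjusted p = 0.00966). Nfkbib (ENSMUSG00000030595, chromosome 7, 28758251 to 28767512, minus strand) encodes IkappaB-beta and had 20.9, 25.7 and 31.1 CPM in shCdGAP, against 29.5, 23.5 and 26.5 CPM in shCTL. Here the shCdGAP libraries spanned the whole shCTL range, and the log2 fold change was −0.03 ± 0.18 (adjusted p = 0.924). Its sign turned without shCdGAP replicate 1 (0.11), without shCTL replicate 1 (0.04) and without both libraries numbered 1 (0.20), and it passed in none of these fits.

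The gene of nuclear IkappaB-zeta and the ubiquitin-editing gene varied more between shCdGAP libraries. Tnfaip3 (ENSMUSG00000019850, chromosome 10, 19000910 to 19015657, minus strand) encodes an enzyme that removes activating ubiquitin chains upstream of IKK and so ends signalling. It had 48.9, 73.6 and 77.4 CPM in shCdGAP, against 31.4, 28.3 and 25.6 CPM in shCTL. Replicate 1 was the lowest shCdGAP library yet above all of shCTL, and the log2 fold change was 1.23 ± 0.20 (adjusted p = 0.00745). Nfkbiz (ENSMUSG00000035356, chromosome 16, 55811375 to 55838899, minus strand) encodes IkappaB-zeta, a nuclear protein that regulates a subset of target genes. It had 32.9, 49.4 and 79.2 CPM in shCdGAP, against 32.9, 38.4 and 35.7 CPM in shCTL. Replicate 1 of shCdGAP was level with the lowest shCTL library and the other 2 lay above all of shCTL, and the log2 fold change of 0.59 ± 0.31 missed the threshold (adjusted p = 0.226). Nfkbiz did pass once shCdGAP replicate 1 was left out, at a log2 fold change of 0.86 (adjusted p = 0.00683). Of the 3 shCdGAP libraries, replicate 1 gave the lowest level for 6 of the 10 members and the highest for 2, which were Rela and Nfkbia. How often replicate 1 was lowest or highest over all tested genes was not counted.

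**Figure D2:**
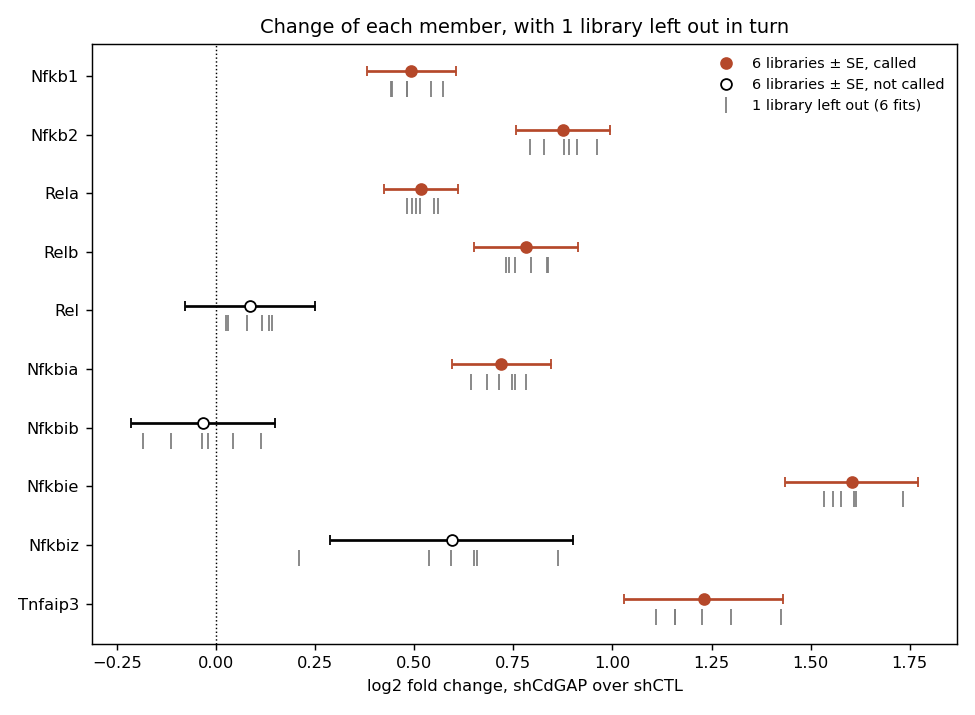
Log2 fold change of each member, shCdGAP over shCTL (x axis), with the SE, in the edgeR test on 6 libraries (circles) and with each library left out in turn (ticks). The ticks for the 7 called genes all lie above 0, from 0.44 for Nfkb1 to 1.73 for Nfkbie, while those of Nfkbib lie on both sides of 0.

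The number of called members depended on the libraries in the fit. It was 8 without shCdGAP replicate 1, 6 without shCdGAP replicate 3 or shCTL replicate 1, 5 without shCdGAP replicate 2 or shCTL replicate 3, and 3 without shCTL replicate 2. The 3 that passed in all 6 of these edgeR fits were Nfkb2 (adjusted p up to 0.0291), Nfkbie (up to 0.015) and Tnfaip3 (up to 0.0424). Without shCTL replicate 2, Nfkb1 (adjusted p = 0.117), Rela (0.0766), Relb (0.0578) and Nfkbia (0.0522) no longer passed, with log2 fold changes of 0.48, 0.50, 0.75 and 0.75. Nfkb1 passed in that set of fits only without shCdGAP replicate 1 (adjusted p up to 0.121 in the others). Rela was also lost without shCdGAP replicate 2 (adjusted p = 0.0513) and Relb without shCTL replicate 3 (adjusted p = 0.0548). The count of risen genes over the whole table moved as well, from 1396 of 13483 tested in the fit on all libraries. It was 2753 of 13831 without shCdGAP replicate 1, 824 of 13847 without shCdGAP replicate 2 and 1227 of 13696 without shCdGAP replicate 3. Leaving out shCTL replicates 1, 2 and 3 in turn, it was 791 of 13786, 538 of 13629 and 563 of 13623.

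Levels were set side by side between genes per kilobase of annotated exon (FPKM, on the same TMM scale). In shCdGAP cells the order ran from Nfkb2 (41.6 FPKM) and Rela (37.4) to Nfkb1 (28.0), Nfkbia (22.1), Nfkbib (11.9), Nfkbiz (10.7), Tnfaip3 (9.22), Nfkbie (7.11), Relb (6.93) and Rel (2.31 FPKM). Nfkb2 and Rela overlapped in range there, as did each neighbouring pair from Nfkbib to Relb. The shCTL order began with Rela (26.1 FPKM), followed by Nfkb2 (22.7), Nfkb1 (19.9), Nfkbia (13.4), Nfkbib (12.2) and Nfkbiz (7.11). It ended with Relb (4.03 FPKM), Tnfaip3 (3.93), Nfkbie (2.34) and Rel (2.18), and the pairs Nfkb2 and Nfkb1, Nfkbia and Nfkbib, Relb and Tnfaip3, and Nfkbie and Rel overlapped. Rela was thus ahead of Nfkb2 in every shCTL library, and Nfkb2 was ahead of Rela in shCdGAP replicates 2 and 3 but not in replicate 1.

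The summed level of the 5 subunit genes was 116 ± 6.03 FPKM in shCdGAP and 74.9 ± 2.35 FPKM in shCTL (SD, n = 3 each). The sum of the IkappaB genes Nfkbia, Nfkbib and Nfkbie was 41.2 ± 2.78 FPKM in shCdGAP and 28.0 ± 0.846 FPKM in shCTL. The ratio of the IkappaB sum to the subunit sum was 0.354, 0.327 and 0.383 in shCdGAP libraries, against 0.363, 0.366 and 0.392 in shCTL libraries, and these ranges overlapped. Within the sums the shares differed. Nfkb2 made up 35.8% ± 2.13 of subunit transcripts in shCdGAP and 30.3% ± 1.16 in shCTL, and Rel 1.99% ± 0.198 in shCdGAP and 2.91% ± 0.166 in shCTL. Nfkbie made up 17.3% ± 2.26 of IkappaB transcripts in shCdGAP and 8.36% ± 0.094 in shCTL, while Nfkbib made up 28.9% ± 3.91 in shCdGAP and 43.6% ± 4.19 in shCTL. These sums and shares follow from the same counts as the folds above and were not tested.

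**Figure D3:**
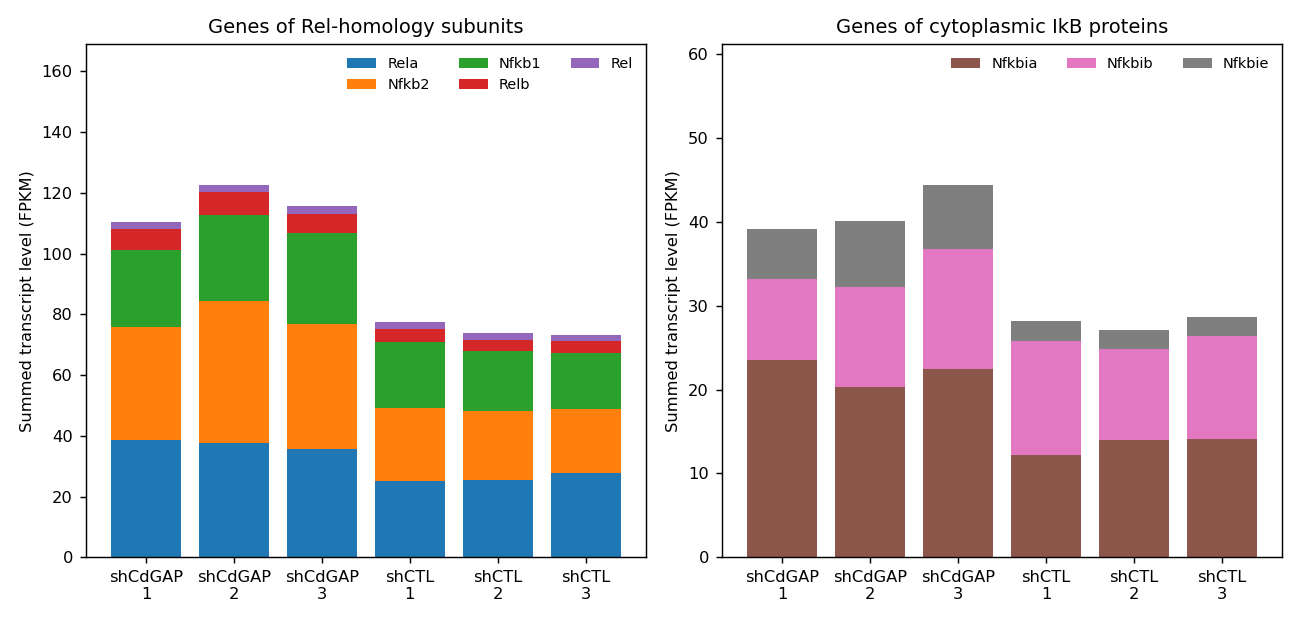
Stacked transcript levels in FPKM (y axes, from 0) of the 5 subunit genes (left) and of 3 IkappaB genes (right) in each library. Both stacks are taller in the 3 shCdGAP libraries, and the Nfkbie segment makes up 17.3% of the right stack in shCdGAP and 8.36% in shCTL on average.

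The promoters of the members are shown because kappaB motifs, the sites NF-kappaB binds, are known in several of these feedback genes. RefSeq promoter sequences (GRCm38.p6) were matched for 7 of the 10 members, with 10 transcription starts, and the 250 bases before each start were searched on both strands. Nfkb1, Relb and Nfkbiz had no matched promoter sequence and were not searched. The motifs were chosen after the data had been seen. They were the kappaB consensus and a shorter core, GGNNNTTCC, which can overlap the consensus. The consensus was found in 7 of the 10 promoters, those of Nfkb2 (all 3 starts), Rel, Nfkbia, Nfkbie and Tnfaip3 (start 1). It was found in 3.9% of all 32851 promoter windows of that length, and the core in 15.7% of them. The core was found in 8 of the 10 promoters. Neither motif was in the window of Rela, which rose, or of Nfkbib, which was not called, while Rel, which was not called either, held the consensus on both strands at 1 place. A match is a run of letters and not evidence of binding. Stretches around the matches are printed 5′ to 3′ on the strand of the gene, with the matches to either motif in capitals. They are shown for 6 of the 8 promoters with a match, and start 2 of Nfkb2 (both motifs) and start 2 of Tnfaip3 (the core) are not printed. They lie at chr17:45555574-45555652 (Nfkbie, plus strand), chr10:19015411-19015555 (Tnfaip3, minus strand), chr19:46304678-46304736 and chr19:46305685-46305734 (Nfkb2, plus strand), chr12:55492648-55492878 (Nfkbia, minus strand) and chr11:23771031-23771081 (Rel, minus strand).
Nfkbie: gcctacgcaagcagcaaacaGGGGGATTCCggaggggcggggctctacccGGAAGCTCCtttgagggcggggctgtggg
Tnfaip3, start 1: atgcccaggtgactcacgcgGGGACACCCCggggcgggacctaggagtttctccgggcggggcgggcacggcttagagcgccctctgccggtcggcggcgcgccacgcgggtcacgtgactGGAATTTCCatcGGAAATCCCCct
Nfkb2, start 1: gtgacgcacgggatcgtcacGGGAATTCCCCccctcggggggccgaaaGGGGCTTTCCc
Nfkb2, start 3: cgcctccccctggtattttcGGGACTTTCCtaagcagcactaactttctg
Nfkbia: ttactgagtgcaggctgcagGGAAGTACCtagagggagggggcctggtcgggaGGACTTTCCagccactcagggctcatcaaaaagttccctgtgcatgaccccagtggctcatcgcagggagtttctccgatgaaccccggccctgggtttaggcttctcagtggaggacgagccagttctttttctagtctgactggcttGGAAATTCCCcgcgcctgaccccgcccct
Rel: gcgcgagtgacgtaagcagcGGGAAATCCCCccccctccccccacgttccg

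**Figure D4:**
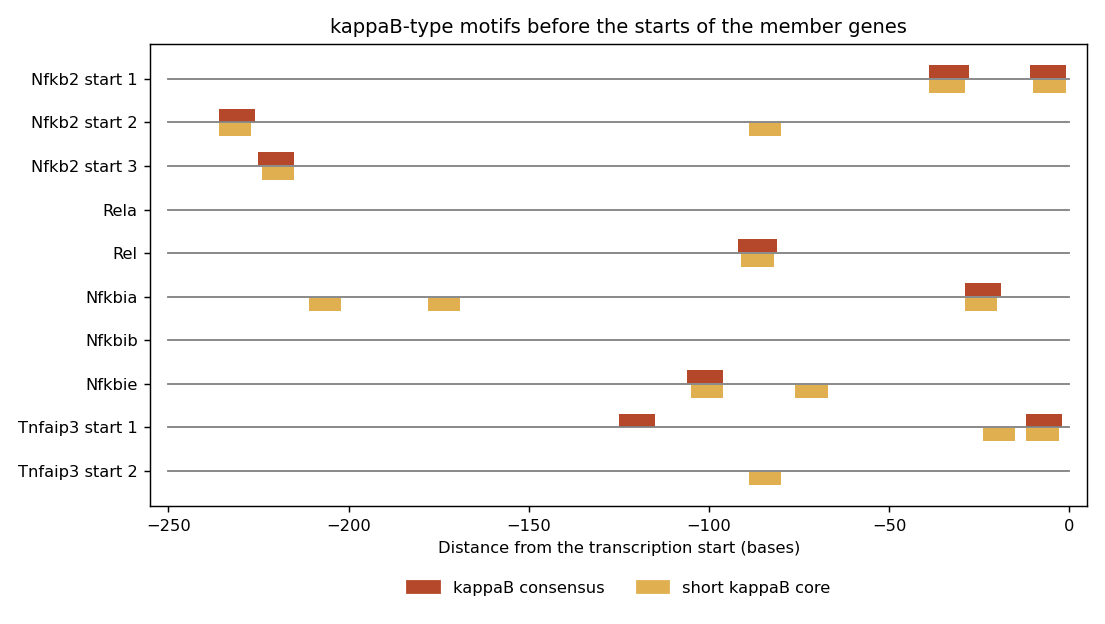
Places of the kappaB consensus and of the core GGNNNTTCC in the 250 bases before each RefSeq start of the 7 members searched, with distance from the start in bases on the x axis. Nfkb1, Relb and Nfkbiz were not searched. The windows of Rela and Nfkbib hold neither, and the consensus matches nearest a start end at −2 (Nfkb2, start 1), −3 (Tnfaip3, start 1) and −20 (Nfkbia).

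Ligands and receptors that feed the canonical pathway were called in both directions. Of 28 listed, 18 were tested, 2 rose and 2 fell (11.1% each way, against 10.4% risen and 11.4% fallen over all tested genes), with a median log2 fold change of −0.02. These are few genes, and no difference from other genes was tested. At an unadjusted p under 0.05, 2 were higher and 4 lower (17.4% and 17.3% over all tested genes). DESeq2 gave 2 and 4 too (14.1% and 14.5%), with Il33 and Il18rap also lower (DESeq2 adjusted p = 0.0356 and 0.0468). The ligand genes Tnf, Il1a and Il1b had too few counts to be tested in either group, and Tlr5, Tlr9 and Edar had 0 counts. Eda2r, a receptor of the TNF family, fell to 46.0 ± 4.64 CPM in shCdGAP, against 97.1 ± 3.70 CPM in shCTL (log2 fold change −1.08, adjusted p = 0.00149). Il17ra, the common chain of IL-17 receptors, fell to 26.2 ± 3.75 CPM in shCdGAP, against 53.4 ± 3.86 CPM in shCTL (adjusted p = 0.0043). Eda, the ligand of Eda2r and Edar, rose to 18.0 ± 6.94 CPM in shCdGAP, against 8.08 ± 1.15 CPM in shCTL (adjusted p = 0.0338). Il1rn, the antagonist of the IL-1 receptor, rose to 11.6 ± 4.03 CPM in shCdGAP, against 5.67 ± 0.595 CPM in shCTL (adjusted p = 0.0377, and 0.0527 with the replicate block). Both of these rises were lost whenever a shCTL library was left out, at adjusted p up to 0.131 for Eda and 0.148 for Il1rn, and Il1rn also without shCdGAP replicate 2 or 3. Without shCdGAP replicate 1, 2 rose and 5 fell, where 2753 and 3032 of all 13831 tested genes did.

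Between receptor and IkappaB, 30 IKK subunits, kinases and adaptors were listed and 29 tested, and 1 rose and 4 fell (3.45% and 13.8%, against 10.4% and 11.4% over all tested genes). No difference from other genes was tested, and the median log2 fold change was −0.09. The kinase gene Chuk was at 125, 156 and 154 CPM in shCdGAP, against 135, 126 and 122 CPM in shCTL. Ikbkb was at 85.9, 69.1 and 79.2 CPM in shCdGAP, against 69.4, 60.4 and 61.7 CPM in shCTL. The groups overlapped for both genes, and neither passed (adjusted p = 0.323 and 0.147). Ikbkg, the gene of the regulatory IKK subunit, was at 214, 126 and 106 CPM in shCdGAP, against 105, 105 and 104 CPM in shCTL. Its groups did not overlap, and it did not pass either (adjusted p = 0.219). All of these IKK genes were chosen after their values were seen. The 1 riser was Card10, a scaffold that links receptors to IKK in epithelium, with 436.6 ± 129 CPM in shCdGAP and 195 ± 40.0 CPM in shCTL (log2 fold change 1.16, adjusted p = 0.0252). It passed in the leave-one-out fits only without shCdGAP replicate 1 (adjusted p up to 0.0996). Rbck1, a subunit of the linear ubiquitin ligase, fell to 81.3 ± 8.53 CPM in shCdGAP, against 159.5 ± 4.25 CPM in shCTL (log2 fold change −0.97, adjusted p = 0.00196), and passed in every fit. Irak3, an inhibitory member of the IRAK family, fell to 1.99 ± 0.402 CPM in shCdGAP, against 4.44 ± 0.424 CPM in shCTL (adjusted p = 0.0144), and was lost without any 1 shCTL library (up to 0.0683). The remaining fallers were Map3k7 (log2 fold change −0.48, adjusted p = 0.0176) and Bcl10 (−0.57, adjusted p = 0.0389). The counts were 4 risen and 8 fallen without shCdGAP replicate 1, and 0 risen and 1 fallen without any 1 shCTL library. Over all tested genes they were 2753 risen and 3032 fallen of 13831 without shCdGAP replicate 1. Without any 1 shCTL library they were 538 to 791 risen and 856 to 1054 fallen.

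In the non-canonical arm, 8 of 16 listed genes were tested, and 2 rose and 1 fell (over all tested genes, 10.4% rose and 11.4% fell), with a median log2 fold change of 0.13. Map3k14, the kinase that starts processing of the Nfkb2 precursor, rose to 28.9 ± 5.58 CPM in shCdGAP, against 16.5 ± 1.86 CPM in shCTL (log2 fold change 0.81, adjusted p = 0.0234). Birc2, a ubiquitin ligase that marks that kinase for degradation, rose to 37.2 ± 4.92 CPM in shCdGAP, against 24.4 ± 2.76 CPM in shCTL (log2 fold change 0.61, adjusted p = 0.0339, and 0.0652 with the replicate block). Both were lost without shCdGAP replicate 2 or any 1 shCTL library (adjusted p up to 0.0945 and 0.126), which left 0 risen. In these fits 538 to 824 of all tested genes rose. Tnfrsf11a, the receptor RANK, had 0 counts in shCdGAP and 211 in shCTL, and was at least 66.7-fold lower (floor of 3 counts over the group). The lymphotoxin receptor gene Ltbr was at 114.7 ± 10.9 CPM in shCdGAP and 108 ± 4.998 CPM in shCTL (adjusted p = 0.637, named after its values were seen).

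Genes that degrade IkappaB and inhibitors outside the set had no call among 8 and 14 tested genes, numbers too small to set against the 10.4% risen and 11.4% fallen over all tested genes. Of 8 genes of the ubiquitin ligase that marks IkappaB and of its activation by Nedd8, 0 rose and 0 fell in edgeR. At an unadjusted p under 0.05, 2 were higher and 1 lower (17.4% and 17.3% over all tested genes). DESeq2 gave 1 of each (14.1% and 14.5%). Skp1a was at 266.7 ± 4.63 CPM in shCdGAP and 246.7 ± 24.3 CPM in shCTL, and Nedd8 at 62.1 ± 9.46 CPM in shCdGAP and 59.5 ± 4.58 CPM in shCTL. Of 15 other inhibitors 14 were tested, and 0 rose and 0 fell in edgeR. Beside the same shares, 2 were higher and 2 lower at an unadjusted p under 0.05, and DESeq2 gave 1 and 2. Tnip1, which helps Tnfaip3 act on its substrates, was at 138 ± 19.3 CPM in shCdGAP and 103 ± 9.97 CPM in shCTL (adjusted p = 0.0746), and Rnf11 at 136.5 ± 11.4 CPM in shCdGAP and 161 ± 24.7 CPM in shCTL (adjusted p = 0.288). Without shCdGAP replicate 1, 3 of the degradation genes rose and 2 fell, and 4 of the other inhibitors rose and 4 fell, Tnip1 among the risen (adjusted p = 0.00901). Over all 13831 genes tested in that fit, 2753 rose and 3032 fell.

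Target genes outside the set went both ways. Of 38 targets 27 were tested, and 11 rose and 5 fell (40.7% and 18.5%, against 10.4% and 11.4% over all tested genes), with a median log2 fold change of 0.38. The other 11 had too few counts to test, among them Il6, Nos2 and Sele, and Bcl2a1b, Bcl2a1d and Cd83 had 0 counts. At an unadjusted p under 0.05, 13 targets were higher and 8 lower (17.4% and 17.3% over all tested genes). DESeq2 gave 13 and 6 (14.1% and 14.5%). Ptgs2, named after its values were seen, was at 175 ± 89.6 CPM in shCdGAP and 541 ± 201 CPM in shCTL without overlap. It was not called in edgeR (adjusted p = 0.0549) but was lower in DESeq2 (adjusted p = 0.00419). Vcam1, a leukocyte adhesion molecule, had 41.8, 46.0 and 54.2 CPM in shCdGAP, against 3.92, 4.66 and 3.69 CPM in shCTL (log2 fold change 3.53, adjusted p = 0.000163). The chemokine gene Ccl2 had 182, 251 and 320.2 CPM in shCdGAP, against 75.0, 75.8 and 69.7 CPM in shCTL (log2 fold change 1.77, adjusted p = 0.00236). Complement gene C3 had 153, 299 and 316 CPM in shCdGAP, against 0.722, 4.37 and 5.30 CPM in shCTL (log2 fold change 6.18, adjusted p = 0.00244), so that replicate 1 was the lowest library in both groups. Ccl7, a related chemokine gene, had 20.2, 15.5 and 20.3 CPM in shCdGAP, against 3.35, 3.02 and 3.95 CPM in shCTL. These 4 risen targets passed in every fit.

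The 5 targets that fell included genes at low and high levels. Ccnd1, a cyclin gene of the cell cycle, was named after its values were seen and had 652.2, 934.6 and 1068 CPM in shCdGAP, against 1423, 1391 and 1460.3 CPM in shCTL (log2 fold change −0.69, adjusted p = 0.0441). With RLE in place of TMM scaling 4 targets fell, and Ccnd1 was not among them. Where a mean of at least 10 CPM was required 1 target fell, which was Lif. Mmp3, a matrix protease, had 0.358, 0.635 and 0.872 CPM in shCdGAP, against 4.90, 2.98 and 3.39 CPM in shCTL (log2 fold change −2.57, adjusted p = 0.00541), and passed in each fit that kept it. Lif, an IL-6 family cytokine, had 37.4, 57.3 and 39.0 CPM in shCdGAP, against 86.3, 80.3 and 72.6 CPM in shCTL (adjusted p = 0.024). Cxcl10, an interferon-inducible chemokine, had 0.492, 0.589 and 0.753 CPM in shCdGAP, against 1.96, 1.02 and 1.58 CPM in shCTL (adjusted p = 0.0398, and 0.0705 with the replicate block). Csf2, a myeloid growth factor, had 0.670, 0.317 and 0.714 CPM in shCdGAP, against 2.84, 1.27 and 1.505 CPM in shCTL (adjusted p = 0.0411). Lif was lost without any 1 shCTL library or shCdGAP replicate 3 (up to 0.0921), and Cxcl10 (up to 0.135) and Csf2 (up to 0.115) without any 1 library but shCdGAP replicate 1. Leaving out any 1 shCTL library gave 7 risen targets (538 to 791 of all tested genes rose). Over the leave-one-out fits 1 to 9 targets fell (856 to 3032 of all tested genes).

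**Figure D5:**
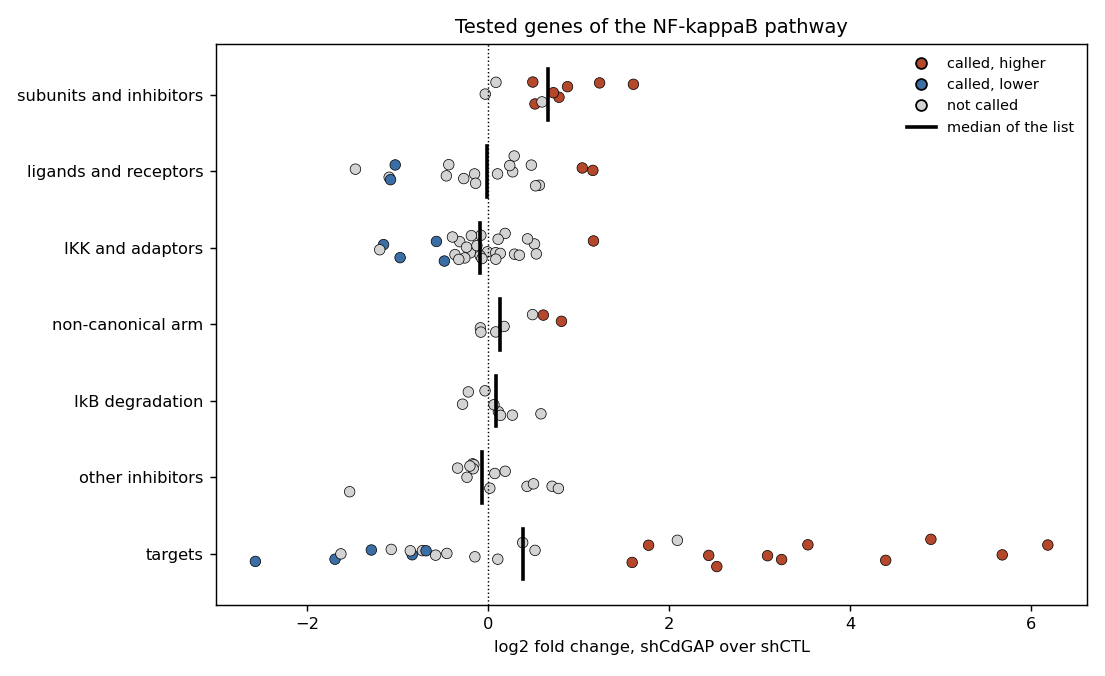
Log2 fold change, shCdGAP over shCTL (x axis), of the tested genes of each list, coloured by the edgeR call, with black bars at list medians; Tnfrsf11a, at 0 counts in shCdGAP, is left out of the points. The 10 subunits and inhibitors have a median of 0.66, with Nfkbib just below 0 at −0.03. The other lists also hold genes on both sides of 0. Called IKK genes and adaptors run from −1.16 (Irak3) to 1.16 (Card10), and targets from −2.57 (Mmp3) to 6.18 (C3).

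The members lie on 8 chromosomes, some of which were shifted as a whole. Nfkbie sits on chromosome 17, where 649 other tested genes had a median log2 fold change of 0.38. Within 1 Mb of Nfkbie 26 tested genes had a median of 0.39, against 1.604 for Nfkbie itself. Of the 26, 5 rose and 0 fell (10.4% and 11.4% over all tested genes). Rela and Nfkb2 share chromosome 19, where the median was 0.27. Within 1 Mb of Rela 78 genes had a median of 0.18, and 16 rose and 4 fell. Within 1 Mb of Nfkb2 35 genes had a median of 0.16, and 6 rose and 1 fell. The chromosome medians were 0.02 for Nfkb1, 0.05 for Relb and 0.01 for Nfkbia, which also rose. Tnfaip3 went against its surroundings, at 1.23 on chromosome 10 with a median of −0.22, and 9 genes within 1 Mb had a median of −0.24. The part of these regional shifts in the changes of Nfkbie, Rela and Nfkb2 was not tested. Psd overlaps Nfkb2, and Ccer2 and Sirt2 overlap Nfkbib, each on the opposite strand, and the counting used strand.

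By pattern over the 6 libraries, the 5 tested genes most like Nfkbie were Ddah1, Mettl4, Hnrnpul2, Arhgef26 and Frmd4b, each with a Pearson r of log2 CPM from 0.997 to 0.998. All 5 rose in shCdGAP, which the choice by likeness to a risen gene largely fixed in advance. Ddah1, an enzyme that breaks down methylated arginines, had 148 ± 19.7 CPM in shCdGAP and 56.2 ± 1.24 CPM in shCTL. All 5 shared with Nfkbie the gap between the groups and a lowest shCdGAP value in replicate 1, traits that the same choice favours. An r over 6 libraries in 2 groups is given as a description.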

How the data were processed

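RNA was sequenced from 3 shCdGAP and 3 shCTL libraries. Per the file headers, the authors deposited raw counts of fragments for each gene, made with featureCounts 1.4.6 on TopHat alignments and the Ensembl release 77 annotation of GRCm38. Its options required both mates to align, skipped chimeric fragments and counted the reverse strand. The submitters' processing notes also name DESeq, Cuffdiff 2.2.1, TopHat2 2.0.14, Trimmomatic 0.30 and CASAVA 1.8. Gene symbols matched 40254 of 41214 genes.

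The counts were fitted with edgeR 4.0.16 in R 4.3.3 (filterByExpr, minimum count 10 and total 15, TMM scaling, quasi-likelihood F test), with Benjamini-Hochberg adjustment over 13483 genes. Adjusted p-values are from this test unless DESeq2 (1.42.0) is named. SEs are the absolute log2 fold change over the square root of F. Steps were tested on simulated data, with the direction of change as the mark to pass. There edgeR left most 2-fold changes uncalled, and DESeq2 made more false calls than edgeR. A gene that was not called may therefore have changed. The closest libraries (shCTL replicates 2 and 3) differed by a chi-square of 3.16 per degree of freedom, more than sampling noise gives.

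The labels share replicate numbers 1 to 3. Deviations from group means correlated at 0.36, 0.29 and 0.25 for same-numbered libraries, each above the 0.1 set by the rule used for a pair. Differently numbered libraries also passed 0.1, at 0.25 (shCdGAP 2 with shCTL 3) and 0.19 (shCdGAP 3 with shCTL 2). The rule therefore sets number 1 apart but hardly tells numbers 2 and 3 apart, and pairing is not settled. The main fit was unpaired. With the replicate number as a block, 6 members rose and 0 fell, where 1277 of all 13483 tested genes rose and 1468 fell. The members and lists were chosen with earlier results of these data known. Named genes are the 10 members, up to 2 risen and 2 fallen genes per list by adjusted p (4 and 4 for targets), or the 2 most abundant where none passed.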

Additional observations from a re-analysis of the deposited data

How the results depend on the processing

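Of 129 refits of single members under 13 alternatives, 112 kept their direction and their side of the threshold, 12 lost a call, 2 gained one and 3 turned sign. The turned signs were all of Nfkbib (0.11, 0.04 and 0.20), whose range with 1 library left out was −0.18 to 0.11. No fit could be had for Rel where a mean of at least 10 CPM was required. With 1 library left out, 3 to 8 members rose and 0 fell, while 538 to 2753 of all genes rose and 856 to 3032 fell. Under the 10 CPM minimum, 870 genes rose and 825 fell, and without both libraries numbered 1 the counts were 3475 and 3640. With the replicate block, Nfkb1 (adjusted p = 0.0597), Birc2, Il1rn and Cxcl10 lost their calls and no other gene named by the rule above changed its own. Markers and genes named after their values were seen, such as Ccnd1, are not covered by that statement. Nfkb1 was lost with no filter on low counts too (adjusted p = 0.0572). The Nedd8 value turned to −0.0095 without shCdGAP replicate 3 and −0.0069 without shCTL replicate 1. List counts and named genes were refitted after seeing the data. The cause of these shifts was not tested. A count of 0 allows up to 0.109 to 0.155 CPM (3 counts), for counting error only.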
